A study of Homo sapiens with 12 samples.

Results

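Messenger RNAs that came down with eIF4E from untreated MDA-MB-231 cells were compared with the RNA that control IgG brought down from the same kind of cells. The comparison uses 6 of the series' 12 arrays: 3 arrays of eIF4E precipitates and 3 of IgG precipitates, all from cells that were not irradiated. MDA-MB-231 is an established human triple-negative breast cancer line of mesenchymal type, grown here in DMEM with 10% FBS. The other 6 arrays hold the same precipitates from cells given 2 Gy of X-rays 6 h earlier, and they were used to estimate the spread and, at the end, for a comparison. Lysates were precipitated with a commercial RIP-chip kit, in which an antibody pulls down a protein with the RNA attached to it, and each precipitate went onto 1 Affymetrix array. The labels give the molecule measured as total RNA. The design text calls the 3 replicates of each group biological, without saying whether cultures or days were shared.

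eIF4E is the protein that holds the cap at the front end of a messenger RNA. Together with the scaffold eIF4G and the helicase eIF4A it forms eIF4F, which brings the small ribosomal subunit to the messenger. The 4E-BPs are small proteins that compete with eIF4G for eIF4E, and mTOR signalling makes them let go. RNA recovered with IgG shows what sticks to beads and antibody without eIF4E.

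All 22215 non-control probe sets were considered, out of 22277 on the array. Those with a single gene symbol represent 11963 genes. Of these genes, 7178 had a mean signal of at least 57.4 and were tested, and 4785 lay under that minimum. Values are MAS5 signals in arbitrary units, scaled by the authors so that the arrays have 1 trimmed mean. Each difference is therefore relative to the other genes of an array, and none is an absolute amount of bound RNA. Differences are given as eIF4E minus IgG on the log2(signal + 16) scale with the standard error of the fit, where 1 is about a doubling, and the 16 makes changes of dim genes look smaller. A gene is called higher or lower at an adjusted p under 0.05.

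The precipitates of both antibodies differed in more than single genes. Alu repeats, common in introns and between genes, have a probe set of their own, whose signal was 37960 to 47854 on IgG arrays and 13482 to 16839 on eIF4E arrays. The 3' to 5' signal ratio of actin, which rises with broken or incompletely copied RNA, lay at 2.96 to 4.65 in IgG and at 1.33 to 1.36 in eIF4E precipitates. Spiked poly-A control transcripts read 1135 to 2379 in IgG precipitates but 16.9 to 21 in those of eIF4E, and hybridization controls 2770 to 6272 against 440 to 1245. None of these 4 measures overlapped between the antibodies (exact two-sided permutation test, p = 0.1 each, the smallest that 3 against 3 allow). Their part in the gene differences below was not tested. The ratio of the bioB to the bioC control set replicate 1 of each antibody (0.373 and 0.443) apart from the other replicates (0.0269 to 0.049), so counts are also given without replicate 1 of every group. Log2 values correlated at 0.965 to 0.976 within IgG, at 0.983 to 0.991 within eIF4E and at 0.856 to 0.893 between them. Markers gave only a weak check of the line's label, since 7178 of all 11963 genes were above the signal minimum. All 12 genes chosen as present in this line were above it. These 12 include the epithelial keratins KRT8 and KRT18, which are not mesenchymal markers. Of 10 luminal breast markers 4 were above the minimum, and of 22 liver, leukocyte, neuron and muscle markers 3.

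Of the 7178 genes, 4230 differed between the antibodies (58.9%), 1954 of them higher with eIF4E (27.2%) and 2276 lower (31.7%). At least 2-fold differences were called for 928 higher genes (12.9%) and 980 lower genes (13.7%). Arrays of both antibodies were free of overlap in 4790 genes (66.7%). The median difference of all genes was -0.08, the quartiles -0.67 and 0.57, and the median standard error 0.19. Centring each array on its median moved all genes by 0.12 towards eIF4E, which turned the split to 2236 higher and 1942 lower (53.5% of calls higher, against 46.2% as deposited), and quantile normalization gave 2100 and 2098. The counts were 2025 higher and 2318 lower without replicate 1 of every group. Most genes differ, so the count of a gene list means little unless it is set against these shares.

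The messenger highest with eIF4E among genes measured well on both sides was that of BANF1, a small protein that ties chromatin to the nuclear envelope. Its signal was 535, 496 and 488 on the IgG arrays and 4395, 4311 and 5414 on the eIF4E arrays. The difference was 3.17 ± 0.17 (adjusted p = 8.38e-09 by limma). The 12 largest changes in each direction were picked only among genes whose arrays did not overlap. Lack of overlap in these genes is therefore no added support. DCXR, an enzyme that reduces sugars and carbonyls, read 180, 219 and 223 with IgG and 1428, 1986 and 1771 with eIF4E (2.96 ± 0.30). ILK, a scaffold at integrin adhesions, went from 540, 365 and 502 to 3511, 3400 and 3967 (2.92 ± 0.19). LY6E, a lipid-anchored surface protein, was the least even of this group: its IgG arrays read 86.5, 53.2 and 163, and its difference of 2.93 has an SE of 0.53.

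The other 8 of the 12 largest increases lay between 2.65 and 2.80. They code for TOMM22, the receptor of the mitochondrial import pore (2.71 ± 0.21), COPE, a subunit of the COPI coat (2.67 ± 0.19), CDA, which salvages cytidine (2.73 ± 0.22), and CST3, the secreted protease inhibitor cystatin C (2.65 ± 0.18). DDA1, a partner of CUL4 ubiquitin ligases, was higher by 2.80 ± 0.18, PCBD1, a pterin dehydratase, by 2.79 ± 0.21, BCL7C, a SWI/SNF subunit, by 2.66 ± 0.25, and MLF2 by 2.65 ± 0.23. The 12 genes span a median of 6.69 kb in the genome, from 1.65 to 60.5 kb.

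On the other side, PTPRO, a phosphatase of receptor type, decreased most, with 7094, 8862 and 7505 on IgG arrays and 460, 2272 and 1540 on eIF4E arrays (-2.71 ± 0.43). The eIF4E arrays scatter widely, and their lack of overlap with IgG was a condition of the choice. TMF1, a coiled-coil protein of the Golgi, was tighter at 1764, 2003 and 1836 against 373, 278 and 271 (-2.56 ± 0.16). CELF1, which binds GU-rich stretches of messengers and speeds their decay, read 6067, 7120 and 7476 against 1182, 1443 and 1217 (-2.41 ± 0.14).

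The other decreases included messengers of several nuclear proteins. SRRM2, a scaffold of nuclear speckles, stood at -2.37 ± 0.27 and TPR, which builds the basket of the nuclear pore, at -2.33 ± 0.24. NKTR, a cyclophilin with a serine and arginine rich tail, stood at -2.22 ± 0.15 and the forkhead transcription factor FOXO3 at -2.18 ± 0.20. PANK3, a kinase of coenzyme A synthesis, and MID1, a ubiquitin ligase on microtubules, both fell by 2.28 (SE 0.21 and 0.19). EPM2AIP1 was at -2.26 ± 0.25, the phosphatase NUDT3 at -2.22 ± 0.15 and the kelch protein KLHDC10 at -2.18 ± 0.15. The 12 genes with the largest decreases span a median of 64.4 kb, from 8.09 to 388 kb.

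**Figure D1:**
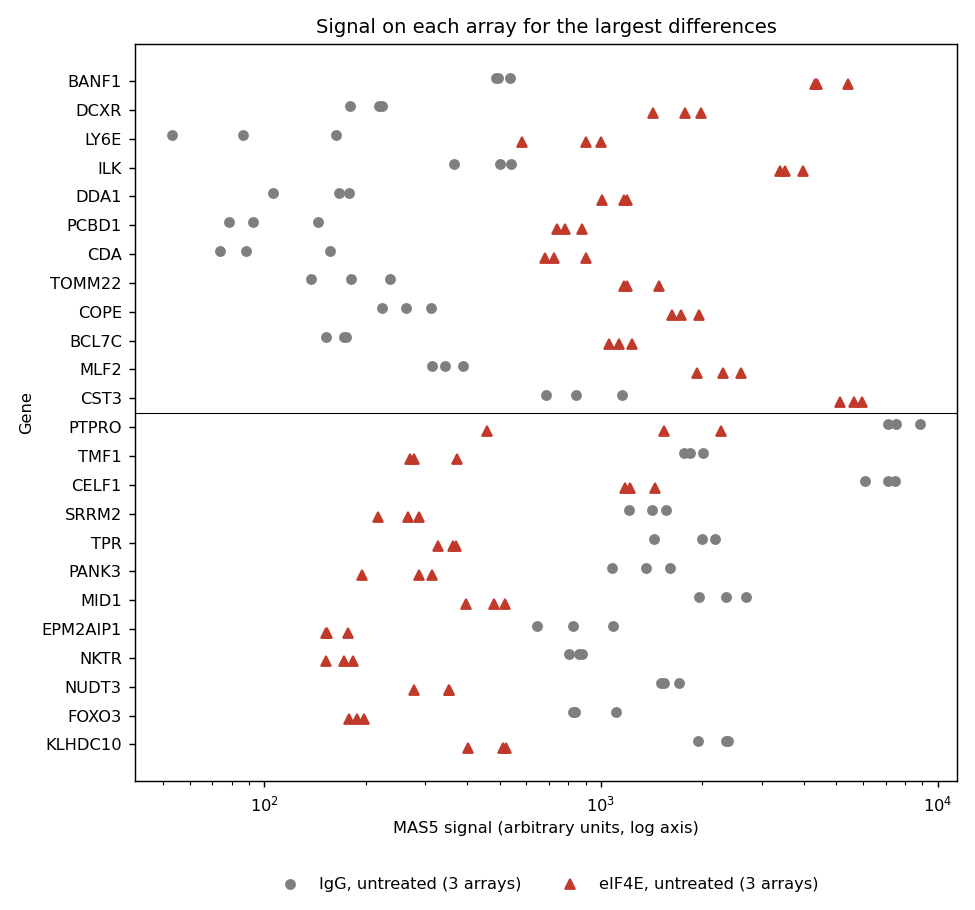
Signal on each of the 6 untreated arrays (log axis, MAS5 units) for the 12 largest increases and the 12 largest decreases, grey circles for IgG and red triangles for eIF4E. BANF1 sits at 488 to 535 with IgG and at 4311 to 5414 with eIF4E, and PTPRO shows the widest scatter among its eIF4E arrays, from 460 to 2272.

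Messengers for the cap-binding machinery itself were mostly lower. Of 14 genes of eIF4F, its repressors and its partners, 8 were lower and 1 was higher. Those are 57.1% and 7.14%, against 31.7% and 27.2% of all genes. The median was -0.56 against -0.08 for all genes, and the 14 include no gene for the helicase eIF4A. The higher one was EIF4EBP1, which codes for the repressor 4E-BP1: 706, 357 and 451 with IgG became 2622, 2387 and 2760 with eIF4E (2.38 ± 0.19, adjusted p = 1.09e-07). The 2 sets of arrays are far apart. Its relative EIF4EBP2 read 447, 329 and 553 against 194, 373 and 402, with overlapping arrays (-0.47 ± 0.32, adjusted p = 0.217).

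EIF4E, the messenger of the precipitated protein, was itself lower, at 1800, 3137 and 2578 with IgG and 1203, 1129 and 1031 with eIF4E (-1.12 ± 0.23, adjusted p = 6.08e-04). IgG replicate 1 is the closest to the eIF4E arrays, but the groups do not overlap. EIF4G1, the main scaffold of eIF4F, read 1959, 1996 and 2052 against 1028, 1359 and 1066 (-0.80 ± 0.17). EIF4B, which helps the helicase eIF4A, fell by 1.01 ± 0.16 and PABPC1, the protein that coats poly-A tails and touches eIF4G, by 1.03 ± 0.15. CYFIP1, which binds eIF4E together with FMRP, had the largest decrease of the list, -1.23 ± 0.23.

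**Figure D2:**
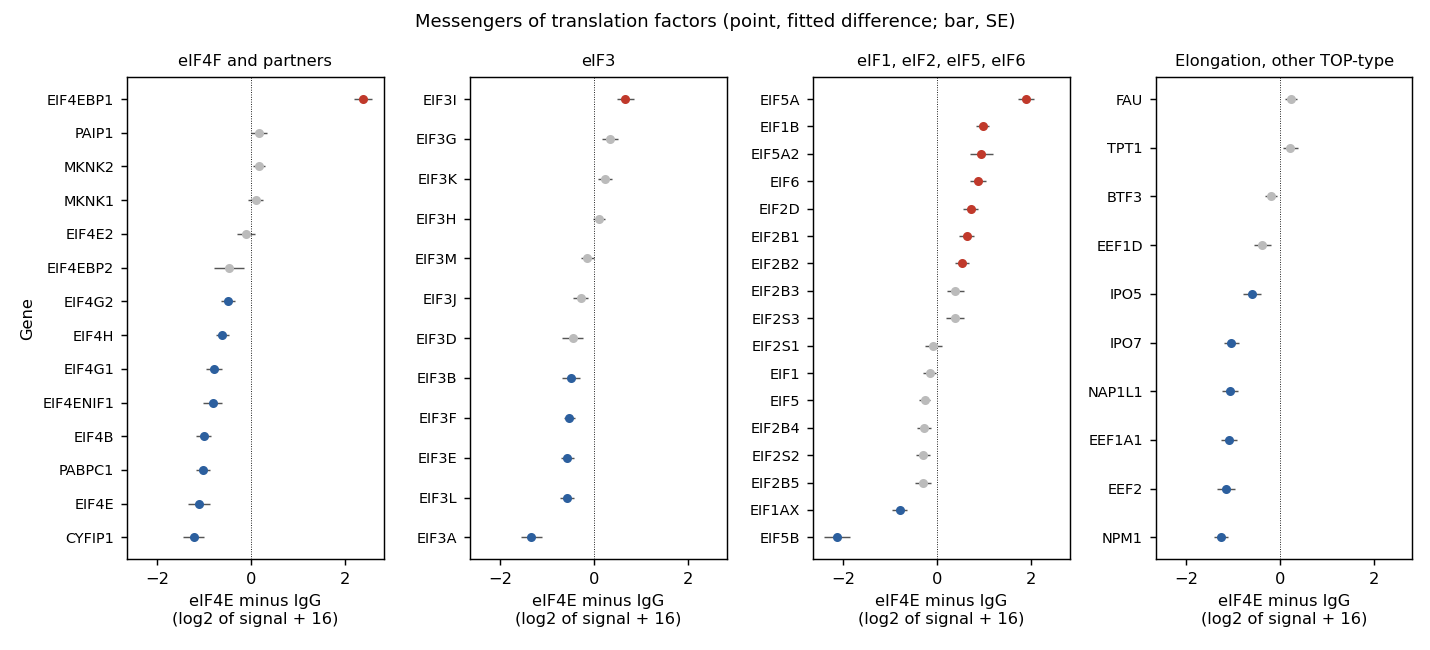
Fitted difference between eIF4E and IgG for each tested messenger of translation factors (x axis, log2 of signal + 16; bars, standard error), red where higher, blue where lower and grey where not past an adjusted p of 0.05. EIF4EBP1 stands alone at 2.38 in the first panel, and EIF5A (1.89) and EIF5B (-2.13) mark both ends of the third.

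Other initiation factors differed from subunit to subunit. Of 12 eIF3 subunits, the complex that ties eIF4G to the small ribosomal subunit, 1 was higher and 5 were lower (median -0.37). Those are 8.33% and 41.7%, against 27.2% and 31.7% of all genes. EIF3I read 2257, 1674 and 1842 against 3587, 2810 and 2724 (0.66 ± 0.18), while EIF3A, the largest subunit, read 2579, 2502 and 2063 against 793, 1157 and 865 (-1.34 ± 0.22). Of 17 genes of eIF1, eIF2, eIF5 and eIF6, 7 were higher and 2 lower (median 0.38). EIF5A, which helps ribosomes past difficult peptide bonds, rose from 1820, 1238 and 1831 to 5970, 5808 and 6165 (1.89 ± 0.17). EIF5B, the GTPase that joins the ribosomal subunits, fell from 506, 1127 and 959 to 160, 210 and 157 (-2.13 ± 0.27). These messengers with similar names lie at opposite ends of the list. Of 25 aminoacyl-tRNA synthetases 4 were higher and 12 lower (median -0.44), led by EPRS1 at -1.43 ± 0.31 and, on the higher side, by the mitochondrial SARS2 at 0.84 ± 0.22.

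Messengers of ribosomal proteins and elongation factors start with a run of pyrimidines, the 5' terminal oligopyrimidine or TOP motif, through which growth signals control their translation. The start sequences of the members described next are shown so that the motif can be seen beside messengers without it. Each is 23 bases of RefSeq's GRCh38.p14, with 8 bases before the first listed transcription start, the first 5 transcribed bases in capitals and 10 more bases of the first exon. A TOP-type start was counted as a C followed by 4 bases that are each C or T.
RPLP2, chr11:809959-809981, plus strand: ggcgccttCCTTTtcctccctgt
RPL27A, chr11:8682784-8682806, plus strand: aggccttcCTTTTtcgtctgggc
EEF2, chr19:3985449-3985471, minus strand: tcagcgttCTCTTccgccgtcgt
RPL36, chr19:5690287-5690309, plus strand: gcgccagcCCTTCcgccacggcc
BANF1, chr11:66002495-66002517, plus strand: aaagttctAGTGGcttgaggtat
TOMM22, chr22:38681949-38681971, plus strand: tcctttccGCTTCcggtgtcccc
NDUFA3, chr19:54102847-54102869, plus strand: tcctcgccGCTGTcgccgccgcg
TMF1, chr3:69052319-69052341, minus strand: ctgggctcGTAGAtttggttgct
TPR, chr1:186375239-186375261, minus strand: cgcgcgcaCTTCGgtcgcgggcg
EIF4E, chr4:98929119-98929141, minus strand: gagcggttGTGCGatcagatcga
The first 4 have the TOP-type start and the other 6 do not, among them the higher messengers of BANF1, TOMM22 and NDUFA3 and the lower ones of TMF1, TPR and EIF4E.

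Of 56 cytosolic ribosomal proteins, 29 were lower and 4 higher (median -0.38). RPL27A read 1342, 955 and 758 with IgG and 236, 235 and 259 with eIF4E (-1.96 ± 0.25). RPLP2, a protein of the ribosomal stalk, read 280, 338 and 192 against 49.9, 61.1 and 71 (-1.87 ± 0.34). This probe set is dim: genes off in these cells had a median of 24.0 ± 3.13 (SD) with eIF4E. In contrast, 35 ribosomal protein genes had mean signals of at least 12051. Whether the probe set reads the main RPLP2 messenger was not tested. RPL36 went the other way, from 7421, 4592 and 4629 to 13714, 11154 and 11999 (1.18 ± 0.17), and RPL39L, a paralog of RPL39, was higher by 1.40 ± 0.22. Ribosomal protein genes have many processed copies in the genome, so their probe sets may pick up relatives. RPL36 and RPL27A differ in direction and share the same kind of start. The RPL27A probe set is also far dimmer than the 35 genes above 12051, and whether it reads the main RPL27A messenger was not tested.

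None of the 10 elongation factors and other TOP-type messengers was higher and 6 were lower (median -0.82). EEF2, the translocase of elongation, read 7615, 9687 and 9774 against 3672, 4518 and 3948 (-1.15 ± 0.19). EEF1A1, which delivers aminoacyl-tRNA, fell by 1.08 ± 0.17, and the nucleolar chaperone NPM1 fell by 1.26 ± 0.14. TPT1, a classic TOP messenger, was not called by its brightest probe set (0.22 ± 0.16, adjusted p = 0.239) and was lower, at -0.55, as the mean of its probe sets. FAU, which codes for a ribosomal protein fused to a ubiquitin-like one, was not called either (0.23 ± 0.13, adjusted p = 0.147), but it was called higher without IgG replicate 1 (0.38).

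The ribosomal count depended on the scaling. Under quantile normalization the 56 genes had a median of 0.02, with 14 higher and 14 lower, and under median centring -0.26, with 6 higher and 20 lower. Without the first IgG array it was 6 higher and 22 lower. Under quantile normalization the elongation factors and the other TOP-type messengers had 6 lower and 1 higher, with a median of -0.51. These 6 were not all the same genes, since EEF1A1 went to -0.09 and lost its call (adjusted p = 0.538). The ribosomal messengers lie among the brightest probe sets of the array: 35 of the 100 brightest genes were theirs, ranked by the mean over all 12 arrays, a grouping made after values were seen. Those 35 had 23 lower, 0 higher and a median of -0.51, and the 65 others among the 100 had 36 lower, 3 higher and a median of -0.56. After quantile normalization the medians were 0.07 and -0.04. Probe set signal is not an amount of RNA across genes, so this groups probe sets and not messengers by abundance.

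A TOP-type start was found in 32 of 49 ribosomal protein genes with a listed start (65.3%) and in 8 of 9 elongation factor and TOP-type genes. It was found in 345 of the 6055 tested genes with a listed start (5.70%). Of the 27305 genes with a start in the RefSeq table, 4.04% had it at the first listed start. As deposited, of the 38 such genes that code for ribosomal proteins, elongation factors or eIF3, 1 was higher and 18 were lower (median -0.34). The 307 other genes with such a start had 80 higher and 89 lower (median 0.03), and the 5710 genes with another start had a median of -0.10. These counts were not made under the other scalings, and the ribosomal list had a median of 0.02 under quantile normalization. Listed starts are annotation, not the starts used in these cells.

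Messengers for mitochondrial proteins stood out on the higher side. Of 48 mitochondrial ribosomal proteins, 42 were higher and 1 was lower (median 1.16). MRPL34 read 662, 367 and 418 with IgG and 2687, 2435 and 2137 with eIF4E (2.33 ± 0.21), and MRPS17 rose by 2.15 ± 0.16. MRPS27 was the exception at -0.84 ± 0.15. Of 27 subunits of respiratory complex I, which takes electrons from NADH, 25 were higher and 1 was lower (median 1.13). NDUFA3 read 1430, 701 and 850 against 4741, 4177 and 4291 (2.19 ± 0.20), and NDUFB11 rose by 1.82 ± 0.18. NDUFS1, the large iron-sulfur subunit, was the lower one, at 834, 1092 and 927 against 572, 557 and 487 (-0.80 ± 0.20).

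The remaining respiratory complexes followed. Of 36 nuclear-encoded subunits of complexes II to V, 29 were higher and 2 lower (median 0.80). ATP synthase held members at either end: ATP5F1D, a small subunit of its central stalk, rose by 2.39 ± 0.19 and ATP5MC1, of its membrane ring, by 2.08 ± 0.16, while ATP5F1A, the alpha subunit of the catalytic head, fell by 0.68 ± 0.15. SDHA, the flavoprotein of complex II, fell by 0.51 ± 0.19 (adjusted p = 0.0276). That call was lost without IgG replicate 1 or 3 or eIF4E replicate 1 or 3 (adjusted p up to 0.0947). Median centring lost it too (-0.39, adjusted p = 0.0975). Of 16 genes of the import pores of both mitochondrial membranes, 11 were higher and 3 lower (median 1.00). TIMM17B rose from 405, 309 and 412 to 2109, 2222 and 2318 (2.52 ± 0.18), and all 6 small TIM chaperones were higher, a subgroup picked after its values were seen. The import receptor TOMM70 fell from 4227, 4554 and 3723 to 1017, 1175 and 1191 (-1.87 ± 0.16). These 4 mitochondrial lists had the same direction under each scaling and without replicate 1, and no messenger encoded by the mitochondrial genome had a probe set here.

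**Figure D3:**
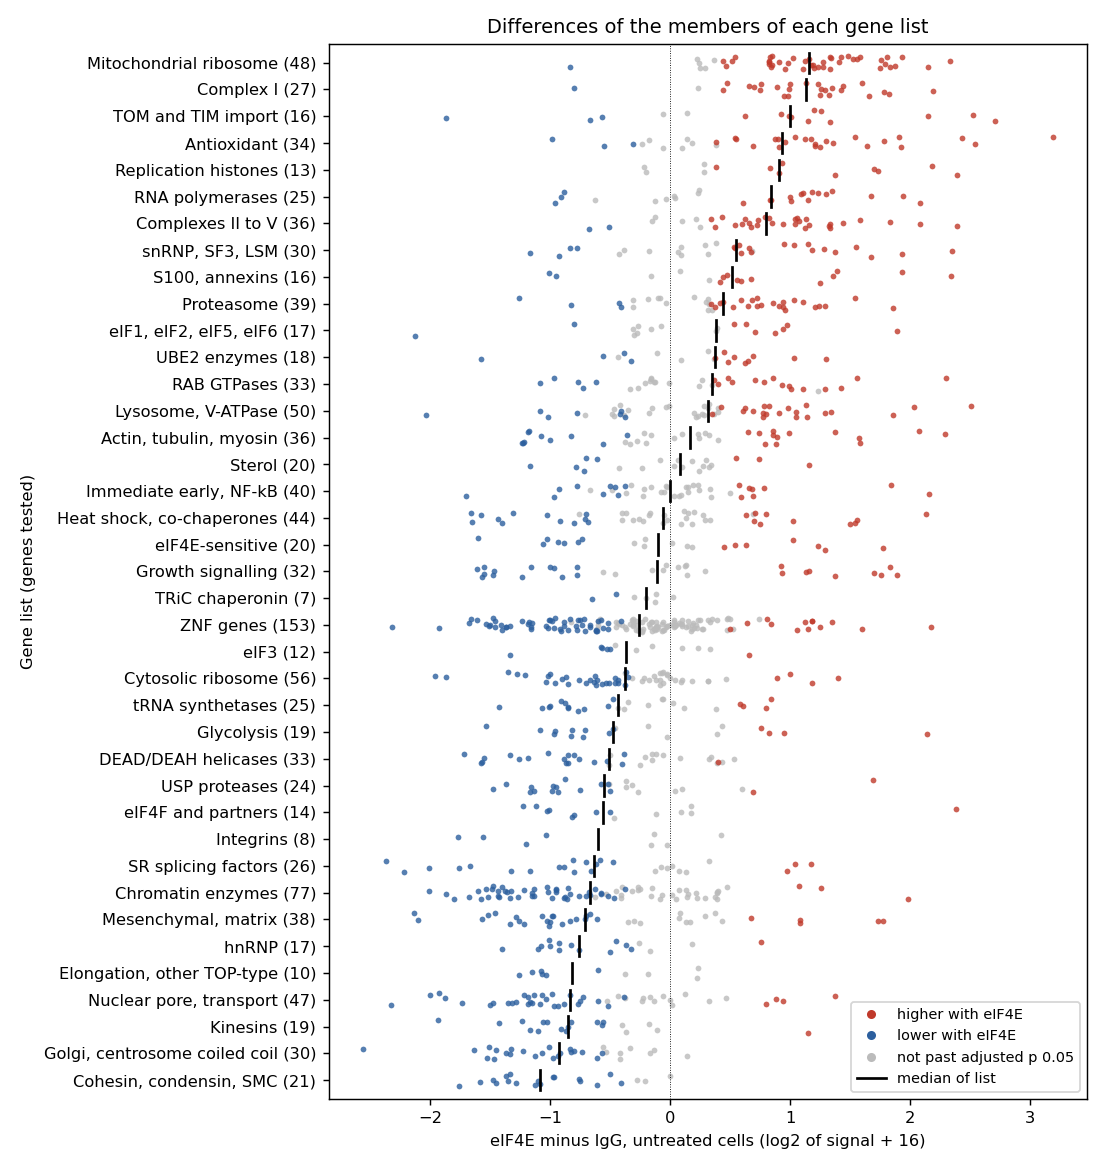
Each point is a tested gene, placed by its difference between eIF4E and IgG (x axis, log2 of signal + 16) in the row of its list, red where higher, blue where lower and grey where not past an adjusted p of 0.05, with a black bar at the median. Rows run from the mitochondrial ribosome (median 1.16) at the top to cohesin and the SMC proteins (median -1.09) at the bottom; the numbers in brackets are genes tested.

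Proteasome and RNA polymerase genes had more higher than lower members, with exceptions in both lists. Of 39 proteasome genes, 23 were higher and 4 lower (median 0.44). PSMC4, an ATPase of the regulatory particle, rose from 486, 364 and 455 to 1644, 1654 and 1542 (1.86 ± 0.21) and PSMD8 by 1.54 ± 0.15. PSMD1, the large scaffold of the same particle, fell from 3386, 2934 and 2531 to 1260, 1136 and 1242 (-1.26 ± 0.22), and the large activator PSME4 fell by 0.83 ± 0.18. PSMD11 and PSMD2 were lower too, at -0.41 ± 0.16 and -0.43 ± 0.17. Of 25 subunits of RNA polymerases I, II and III, 15 were higher and 3 lower (median 0.84). POLR2E, shared by all 3 enzymes, rose by 2.08 ± 0.20 and POLR3K by 1.94 ± 0.15. POLR2B and POLR1B, the second largest subunits of polymerases II and I, fell by 0.91 ± 0.19 and 0.96 ± 0.23. The largest subunit of polymerase II, POLR2A, was not called (-0.04 ± 0.30, adjusted p = 0.918).

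Genes of the spliceosome's core also pointed both ways. Of 30 tested, 16 were higher and 4 lower (median 0.55). Among them 22 genes named SNRP or LSM, many of which code for the small Sm and LSm proteins that form rings on RNA, had 15 higher and 0 lower, and 8 SF3A and SF3B genes had 1 higher and 4 lower. LSM2 rose from 1084, 921 and 1011 to 5420, 4621 and 5506 (2.35 ± 0.16) and LSM4 by 1.93 ± 0.18. SF3A3 fell by 1.17 ± 0.21 and SF3B1, which recognises the branch point, by 0.93 ± 0.25. In the vacuolar proton pump, ATP6V0B and ATP6V0C of the membrane ring rose by 2.51 ± 0.18 and 2.03 ± 0.21. ATP6V1A, the catalytic subunit, fell from 4046, 2600 and 2696 to 649, 853 and 698 (-2.04 ± 0.20). It was the exception: of 7 ATP6V0 genes 5 were higher and 0 lower, and of 7 ATP6V1 genes 4 were higher and 1 lower. The pump belongs to a list of 50 lysosomal genes with 21 higher and 7 lower (median 0.31). The splits into SNRP, LSM and SF3 genes and into ATP6V0 and ATP6V1 genes were made after their values were seen.

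Antioxidant enzymes were mostly higher, 24 of 34, with 3 lower (median 0.93). SELENOW, a small selenoprotein, rose from 467, 269 and 277 to 2411, 1624 and 1991 (2.54 ± 0.23). The glutathione transferases GSTM4 and GSTM2 were higher by 3.19 ± 0.54 and 2.43 ± 0.30, but GSTM genes are near copies of each other and cannot be told apart with certainty, and GSTM4 was dim and uneven with IgG (4, 116 and 37.7). TXNRD1, which recharges thioredoxin, fell by 0.99 ± 0.12. NQO1 read -0.55 ± 0.14 by its brightest probe set and 0.38 as the mean of its probe sets. Of 16 S100 and annexin genes, calcium-binding proteins of membranes and cytoskeleton, 11 were higher and 2 lower (median 0.51). S100A11 rose from 2547, 1677 and 2000 to 11271, 10005 and 9977 (2.34 ± 0.15) and ANXA2 fell by 1.01 ± 0.17. S100A6 fell by 0.95 ± 0.18 as deposited and was at 0.05 after quantile normalization.

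Of 33 RAB GTPases of vesicle traffic, 15 were higher and 5 lower (median 0.35), with RAB5C at 2.30 ± 0.20 and RAB14 at -1.09 ± 0.17. Ubiquitin-conjugating enzymes leaned higher, 9 of 18 with 4 lower (median 0.37, UBE2B 1.30 ± 0.16, UBE2O -1.58 ± 0.38). The ubiquitin-specific proteases, which take ubiquitin off again, leaned lower, 14 of 24 with 2 higher (median -0.55). USP9X, one of the largest, fell from 3042, 4303 and 3350 to 1244, 1304 and 1221 (-1.48 ± 0.19), and USP21 rose by 1.69 ± 0.22.

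Chromosome, nuclear pore and motor protein messengers leaned lower. Cohesin, condensin and the other SMC proteins, the rings that hold and fold chromosomes, had 0 higher and 18 lower of 21 (median -1.09). SMC2 fell from 1395, 1533 and 1471 to 485, 502 and 442 (-1.59 ± 0.14), and PDS5B fell by 1.76 ± 0.29. Of 47 nuclear pore proteins and transport receptors, 30 were lower and 4 higher (median -0.84). TPR read 1989, 2188 and 1439 against 370, 363 and 329, and the importin KPNA4 205, 197 and 212 against 38.7, 37.9 and 41.4 (-2.00 ± 0.24). RANBP1, a small cofactor of the RAN cycle, was the highest of the list at 1.37 ± 0.12.

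Kinesins, the motors that walk on microtubules, had 14 lower and 1 higher of 19 (median -0.85). KIF5B, the heavy chain of the classic kinesin, fell from 7178, 7201 and 6837 to 2105, 1610 and 1806 (-1.94 ± 0.12), KIF11 fell by 1.43 ± 0.17, and KIF22 rose by 1.15 ± 0.21. Of 30 coiled-coil proteins of the Golgi and centrosome 22 were lower and 0 higher (median -0.93), with TMF1 first. Cytoskeleton genes were mixed: of 36 genes for actin, tubulins, myosins and actin-binding proteins 13 were higher and 10 lower (median 0.16, and 0.28 under centring). Those are 36.1% and 27.8%, against 27.2% and 31.7% of all genes. MYL9, a myosin light chain, rose by 2.29 ± 0.25 and PFN1, which feeds actin monomers to growing filaments, by 2.07 ± 0.18, while CFL1, which severs filaments, read 43819, 29895 and 31864 against 16808, 11976 and 16000 (-1.23 ± 0.19).

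Among RNA-binding proteins, 13 of 17 hnRNP genes were lower and 1 higher (median -0.76), with HNRNPA3 at -1.40 ± 0.18 and HNRNPF at 0.76 ± 0.16. SR splicing factors had 16 lower and 3 higher of 26 (median -0.64), and 13 lower and 4 higher with a median of -0.24 when the probe sets of a gene were averaged. SRRM2, at 1560, 1418 and 1207 against 288, 217 and 268, led this list, and SRSF8 and TRA2A rose by 1.17 ± 0.18 and 1.04 ± 0.13. DEAD and DEAH box helicases had 18 lower and 1 higher of 33 (median -0.51). DDX21, a nucleolar helicase, fell from 4775, 4804 and 4619 to 1398, 1493 and 1375 (-1.72 ± 0.12). DDX41 was higher by 0.40 ± 0.15 (adjusted p = 0.0354). That call was lost when any array other than IgG replicate 3 was left out (adjusted p 0.0591 to 0.103). Leaving out replicate 1 of every group lost it too (adjusted p = 0.113).

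Of 77 chromatin remodellers and histone-modifying enzymes, 45 were lower and 3 higher (median -0.67). The SWI/SNF complex gave both ends of this list. SMARCA4, its ATPase, read 1893, 1498 and 1463 against 297, 502 and 386 (-2.01 ± 0.19), and SMARCB1, a smaller core subunit, 79.1, 113 and 117 against 337, 440 and 609 (1.98 ± 0.22). Of 153 genes named ZNF, mostly zinc finger proteins, 53 were lower and 13 higher (median -0.26, and -0.14 under centring). The lower share of 34.6% is near the 31.7% of all genes, and the higher share of 8.5% is below the 27.2% of all genes. ZNF292 fell by 2.32 ± 0.29 and ZNF580 rose by 2.17 ± 0.25.

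Messengers of replication-dependent histones end in a stem-loop in place of a poly-A tail. Only 13 of the 40 histone genes with a probe set were bright enough to test, and 9 of them were higher and 0 lower (median 0.91). H1-2 read 910, 763 and 875 with IgG and 2941, 2934 and 2515 with eIF4E (1.70 ± 0.15), and H2AC6 163, 339 and 300 against 797, 1020 and 852 (1.73 ± 0.25). H2AC17 and H2AC14 had the largest differences (2.39 ± 0.41 and 2.18 ± 0.44), with IgG signals as low as 1.54 and 9.93. Histone genes of a family are near copies, so a probe set may read several of them. How the labelling was primed is not stated in the labels.

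Of 9 non-coding RNAs with a probe set, 5 were tested. TUG1, a long RNA found in nucleus and cytoplasm, fell from 2091, 3233 and 2786 to 611, 664 and 605 (-2.06 ± 0.17). SNHG17, which hosts a small nucleolar RNA in its introns, rose from 236, 156 and 231 to 486, 435 and 459 (1.11 ± 0.18). SNHG32 was higher by 0.37 ± 0.15 with overlapping arrays (adjusted p = 0.0414). That call was lost without IgG replicate 2 or 3 or eIF4E replicate 1 or 3 (adjusted p up to 0.195). Quantile normalization (adjusted p = 0.0795), no filter (adjusted p = 0.0578) and a fit without the variance trend (adjusted p = 0.0647) lost it too. LINC00667 (-0.50 ± 0.29, adjusted p = 0.155) and LINC01278 (-0.02 ± 0.41, adjusted p = 0.961) were not called.

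Genes that textbooks and reviews name as most sensitive to eIF4E did not share a direction. Of 20 such genes, 7 were higher and 7 lower, 35% each, against 27.2% and 31.7% of all genes. Their median of -0.10 was near that of all genes and turned to 0.01 and 0.02 under quantile normalization and centring. ODC1, the first enzyme of polyamine synthesis, read 3251, 2256 and 2487 with IgG and 5658, 5021 and 5445 with eIF4E (1.02 ± 0.16), and CCND3, a G1 cyclin, rose by 1.29 ± 0.20. CCND1, another G1 cyclin, went the other way, from 4986, 3040 and 2959 to 1822, 2021 and 1697 (-0.94 ± 0.18). The survival factor BCL2 fell by 1.60 ± 0.25 and the hypoxia regulator HIF1A by 1.06 ± 0.13.

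MYC read 1495, 1338 and 1284 against 1220, 1145 and 1160. Its arrays do not overlap, but the difference is small (-0.22 ± 0.15, adjusted p = 0.234). VEGFA was lower by its brightest probe set (-0.74 ± 0.15) and at -0.16 as the mean of its probe sets, and the survival gene BIRC5 was not called by its brightest one (0.18 ± 0.18, adjusted p = 0.427) and higher as a mean (0.61). TGFB1, the top of the list at 1.77 ± 0.40, was dim and uneven with IgG (107, 14.1 and 89.7).

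Mesenchymal, matrix and invasion genes, which mark this line, had 22 lower and 5 higher of 38 (median -0.71). CD44, a receptor for hyaluronan, read 11935, 13452 and 13479 with IgG and 2824, 3232 and 2710 with eIF4E (-2.14 ± 0.12), and ZEB1, a repressor of epithelial genes, 1971, 2158 and 2015 against 450, 510 and 441 (-2.10 ± 0.14). VIM, the intermediate filament of mesenchymal cells, fell by 0.99 ± 0.19. Of 8 integrin subunits 4 were lower (50%, against 31.7% of all genes) and 0 higher (median -0.60). The lower ones were led by ITGAV at -1.77 ± 0.25 and ITGA6 at -1.56 ± 0.18.

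Growth signalling genes were split: of 32 receptors and kinases of the MAPK and PI3K-mTOR paths 9 were higher and 13 lower (median -0.11). Those are 28.1% and 40.6%, against 27.2% and 31.7% of all genes, so the higher share is near that of all genes. The median was 0.01 under centring, -0.28 without IgG replicate 1 and -0.21 without replicate 1 of every group. The kinases MAPK3 and AKT1 and the GTPase HRAS were higher by 1.89 ± 0.28, 1.76 ± 0.25 and 1.70 ± 0.19. HRAS read 1291, 855 and 776 against 3237, 2909 and 3270. The receptor EGFR fell from 685, 1013 and 948 to 216, 324 and 334 (-1.55 ± 0.25) and the PI3K subunit PIK3R1 by 1.61 ± 0.28.

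Of 40 immediate early and NF-kB genes, whose messengers are short-lived, 8 were higher and 9 lower (median 0.00). Both shares, 20% and 22.5%, lie under the 27.2% and 31.7% of all genes. JUNB (2.16 ± 0.37) and RELB (1.84 ± 0.35) were the highest, both dim with IgG, and the phosphatase DUSP4 the lowest (-1.70 ± 0.27). Only 4 were lower after median centring. Glycolysis had 4 higher (21.1%) and 10 lower (52.6%) of 19, with a median of -0.48. PKM, the last enzyme of the path, rose from 617, 697 and 760 to 2288, 3370 and 3859 (2.14 ± 0.24). The glucose carrier SLC2A1 and LDHA fell by 1.54 ± 0.24 and 1.09 ± 0.16. The glycolysis median was -0.30 without IgG replicate 1, -0.26 under quantile normalization and -0.19 with the probe sets of a gene averaged.

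Heat shock proteins and co-chaperones had 10 higher and 12 lower of 44 (median -0.06, and 0.06 under centring). Their shares, 22.7% and 27.3%, are near the 27.2% and 31.7% of all genes. HSPB1, a small heat shock protein, was at 2.13 ± 0.20 and HSP90AA1 at -1.66 ± 0.15. The TRiC chaperonin had 0 higher and 2 lower of 7 (median -0.20), and sterol genes 3 higher and 5 lower of 20 (median 0.08, and 0.24 with probe sets averaged). In TRiC 28.6% were lower, and in the sterol list 15% were higher and 25% lower. ACTB and GAPDH, often used as references, read 0.23 ± 0.22 (adjusted p = 0.386) and -0.51 ± 0.18 (adjusted p = 0.0208). Quantile normalization gave GAPDH -0.10 (adjusted p = 0.424) and ACTB a higher call at 0.78. The GAPDH call was also lost under median centring (-0.39), with its probe sets averaged (-0.33), with no filter (adjusted p = 0.0593), without IgG replicate 1 (-0.30) and without eIF4E replicate 2 (-0.41).

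The span of each gene in RefSeq's annotation, introns included, was set beside its difference. Over 7177 genes the Spearman correlation of span and difference was -0.46, and by replicate number it was -0.42, -0.44 and -0.44. Genes share arrays and are not independent, so this is a description. In the shortest quintile, up to 10.4 kb, 51.5% of genes were higher and 12.3% lower (median 0.54). In the longest quintile, from 90.5 kb, 8.22% were higher and 55.4% lower (median -0.63). The steps between ran in order, with medians of 0.21, -0.11 and -0.36. Span is not the length of the messenger, which was not used here.

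Some lists departed from the genes of their own span. Cytosolic ribosomal proteins have the shortest genes of the lists after histones, with a median span of 5.05 kb, and as deposited their median lay 0.76 under that of their span quintiles. The hnRNP genes, with a median of 14.8 kb, lay 0.80 under theirs. Mitochondrial ribosomal proteins and complex I both lay 0.79 above their span quintiles, and the S100 and annexin genes 0.81 above. GC content showed little relation to the difference: the Spearman correlation was 0.04 with the first 50 transcribed bases and -0.02 with the upstream bases.

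**Figure D4:**
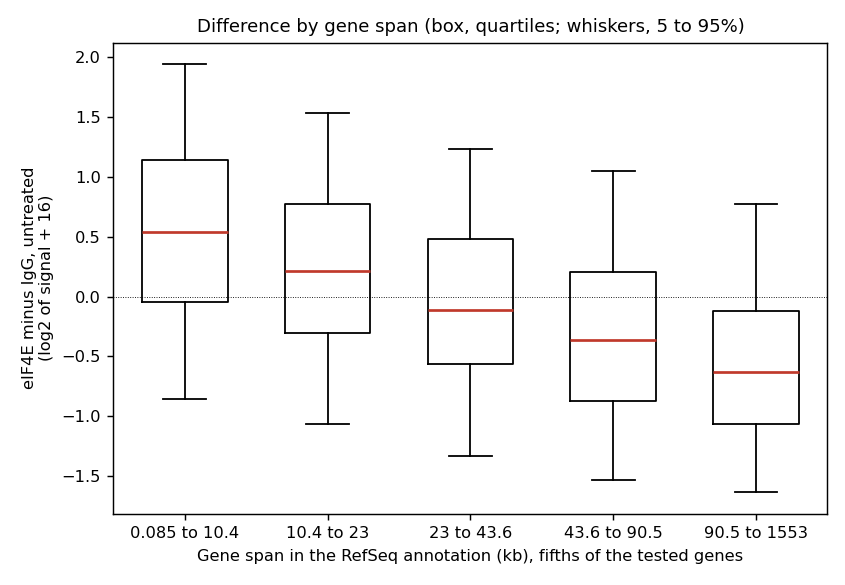
Difference between eIF4E and IgG (y axis, log2 of signal + 16) for the tested genes in quintiles of gene span (x axis, kb), with boxes at the quartiles, a red line at the median and whiskers from the 5th to the 95th percentile. The median falls from 0.54 in the shortest quintile to -0.63 in the longest, and neighbouring boxes overlap.

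Probe sets of a single gene did not always agree in direction. When each of 10566 probe sets with a single gene was tested by itself, 2737 were higher (25.9%) and 3353 lower (31.7%). In 1086 genes at least 2 probe sets were called, and in 158 of these (14.5%) the calls pointed both ways. The widest gap was in GGCX, the vitamin K dependent carboxylase. One of its probe sets read 353, 415 and 317 with IgG and 1636, 1599 and 1670 with eIF4E (2.13 ± 0.17), and another 287, 306 and 296 against 47.6, 47.7 and 71.4 (-2.14 ± 0.27).

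The next was PRDX2, a peroxiredoxin, with probe sets from -1.16 ± 0.31 to 2.77 ± 0.40. In PHLDA1, a nuclear protein linked to cell death, one probe set rose from 277, 170 and 242 to 1362, 1801 and 2135 (2.86 ± 0.29), while 2 others fell by 0.97 ± 0.18 and 0.65 ± 0.14. SYNJ2, an inositol phosphatase, ranged from -1.57 ± 0.17 to 1.63 ± 0.28, and PNN, a splicing-linked protein of nuclear speckles, from -1.46 ± 0.16 to 1.61 ± 0.17. CD44 had 6 probe sets, from -2.14 ± 0.12 to 0.72 ± 0.23. A value given for a gene is therefore that of its brightest probe set, and which transcript each probe set detects was not tested.

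Of the 664 probe sets with no gene name above the same minimum, 222 were lower (33.4%) and 146 higher (22.0%). Their median was -0.20, against -0.08 for named genes.

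The irradiated cells offer arrays that the comparison above did not use for its differences. There 4273 genes were called (59.5%), 1951 higher (27.2%) and 2322 lower (32.3%). Of the 4230 genes called in untreated cells, 3681 were also called in irradiated cells in the same direction (87%, and 86.1% of the irradiated calls) and 0 in the opposite one. Another 528 of the remaining 549 had the same sign. Both differences correlated at r = 0.938 over genes, which share probe sets and are not replicates. All 24 genes with the largest changes were called again, the higher ones at 2.18 to 3.38 and the lower ones at -2.52 to -1.82.

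The difference between the treatments was tested as an interaction: 0 genes passed an adjusted p of 0.05 by limma (0%), and 216 had an unadjusted p under 0.05 (3.01%). Mitochondrial ribosomal proteins had a median of 1.07 in irradiated cells with 42 higher and 1 lower, and cohesin and SMC genes -1.16 with 19 lower. Ribosomal proteins had 5 higher and 20 lower (median -0.22), and growth signalling genes 10 higher and 17 lower (median -0.63). JUNB was 2.16 in untreated and 0.62 in irradiated cells, a difference with an unadjusted p of 0.00997 that did not pass the adjustment (0.999).

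**Figure D5:**
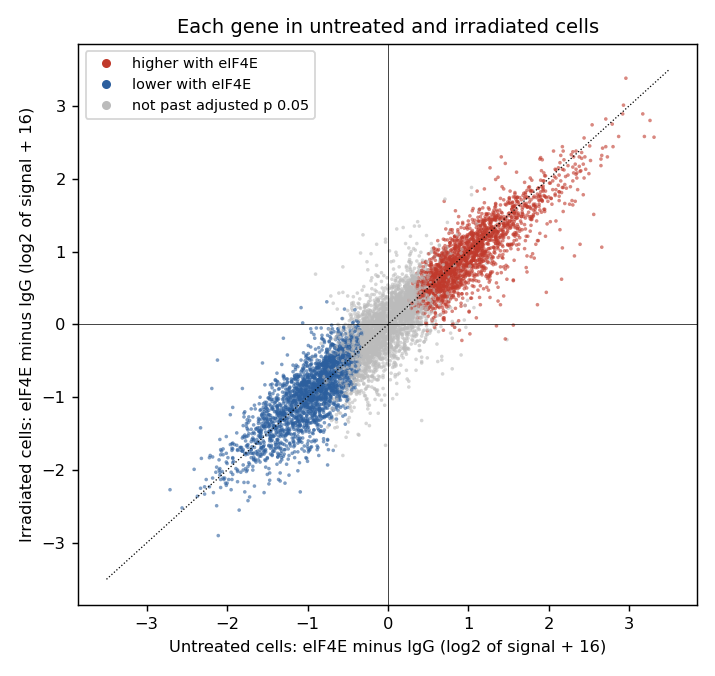
Difference between eIF4E and IgG of each tested gene in untreated cells (x axis) and in irradiated cells (y axis), both on the log2(signal + 16) scale, coloured by the call in untreated cells, with a dotted line of equal values. The points lie along the line (r = 0.938), and none of the genes called in both treatments lies in a quadrant of opposite signs.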

How the data were processed

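RNA from eIF4E and IgG precipitates of MDA-MB-231 cells was measured on 12 Affymetrix arrays, 3 in each of 4 groups that the titles name. The deposited values are linear signal intensities, 1 per probe set and array, made by the authors with MAS5 (version unknown here) as the submitters' processing notes record. Arrays hold no counts; the number of arrays limits the precision. The members and gene lists were chosen with earlier results of these data known.

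Of 22215 non-control probe sets, 19064 had 1 gene symbol in the platform annotation, 1043 several and 2108 none. Symbols of 19052 were updated to RefSeq (GRCh38.p14) through gene identifiers, and that assembly gave spans and start sequences; protein length was not used here. The brightest probe set by mean stood for a gene (_x_at types as a last resort), and genes under the 40th percentile were left out. The fit used lmFit and eBayes with trend of limma 3.58.1 (R 4.3.3) on log2(signal + 16) over all 12 arrays, with Benjamini-Hochberg adjustment over 7178 genes. Named genes are the 12 largest changes in each direction with arrays that do not overlap and a dimmer group mean of at least 100, called members at the ends of each list, 12 fixed genes, 5 genes with opposed probe sets and the non-coding RNAs; EIF4EBP2, TPT1, FAU and any other gene outside these were chosen after their values were seen. Same-numbered arrays of both antibodies deviated together at r = 0.292, 0.163 and 0.0431, so the numbers were not treated as pairs. 0 pairs of arrays held identical values. The fit was tested on simulated data. Figures were drawn with matplotlib 3.10.9.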

Additional observations from a re-analysis of the deposited data

How the results depend on the processing

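The alternatives were 21 settings: pseudocounts of 1 and 64, no filter or one at the 60th percentile, centring on array medians or quantile normalization, array weights, a fit without the variance trend, a replicate block, a batch term for replicate 1, the untreated arrays alone, probe set means, every probe set by itself, a 1.5-fold minimum, replicate 1 of every group left out, and each of the 6 arrays left out. The 1.5-fold minimum changed the counts most, to 1596 genes, 802 higher and 794 lower. Leaving out an array gave 3752 to 4139 genes, 1730 to 1923 higher and 1972 to 2216 lower. The other settings gave 3341 to 4881 genes, or 6090 of the probe sets. The replicate block gave 4465 genes, 2055 higher and 2410 lower. No pairing was used, since the labels give no shared culture or day and the r of replicate 3 was 0.0431, although replicate 1 of every group shares a higher bioB to bioC ratio (0.373 to 0.443). The batch term gave 4509 and the arrays without replicate 1 of every group 4343; replicate 1 alone leaves 1 array a group and no test. Of 150 named genes, 121 kept direction and call in every setting in which they were tested. Many of them were named for large or called differences in these data, so this count is no measure of how steady other genes are. Reversals were NQO1, at 0.38, and TPT1, at -0.55, as probe set means, and S100A6, at 0.05, under quantile normalization; the cause was not tested. Of 820 pairs of a list median and a setting, 55 moved by more than 1 SD, combined from the array medians of both antibodies. The 820 include settings that cannot move a median, so 55 of 820 makes the medians look steadier than they are. Those settings are the 1.5-fold minimum, the fit without the variance trend, the replicate block, the batch term and the untreated arrays alone. Signals near those of genes off in these cells (a median of 28.3 ± 8.62 with IgG and 24.0 ± 3.13 with eIF4E, SD, n = 3) limit what the dim side of a difference can show.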
